A study of Caenorhabditis elegans with 15 samples.

Results

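The comparison described here is high sucrose against no added sugar in *Caenorhabditis elegans*, read from 6 of the 15 RNA sequencing libraries of the series, 3 from worms given 400 mM sucrose and 3 from untreated control worms. All worms were wild type (the laboratory strain N2), were collected whole at the last larval stage (L4) and had been fed *Escherichia coli* OP50. Every gene with enough reads for a test was kept, which left 12745 of the 16196 genes in the table, and genes were then grouped by family, process and tissue. The study set out to model a diet rich in sugar and fat, so a further 6 libraries, stearic acid with and without 400 mM sucrose (the unit of the stearic acid dose differs between the labels and the methods), served here as a separate look at the same addition of sucrose. The labels do not say that libraries came from separate cultures, so p-values measure the spread between these libraries, and RNA from whole worms cannot tell fewer cells of a type from less RNA per cell.

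Sucrose is a disaccharide that reaches the worm both as food and as an osmolyte in the medium. Worms in a concentrated medium are known to build up glycerol, made from a glycolytic intermediate, and to express a small set of hypertonicity genes, while glucose and fructose freed from sucrose feed glycolysis, the citric acid cycle and fat synthesis. The intestine carries out most of this metabolism, the epidermis secretes the collagen cuticle that is renewed at each moult, and the germline begins to make sperm before oocytes at about the L4 stage.

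Summed counts ran from 19433436 to 20553815 per library in the 6 libraries. Levels are given as counts per 1000000 (CPM) after scaling of the libraries, always in the order control 1, 2 and 3 and then sucrose 1, 2 and 3, and changes are log2 fold changes of sucrose over control with their standard error (SE). A differentially expressed gene (DEG) had an adjusted p of 0.05 or less over all 12745 genes and a change of at least 2-fold, and there were 482 higher DEGs (3.78% of the genes tested) and 688 lower DEGs (5.4%), 9.18% in all. The median log2 fold change over all genes tested was -0.02. Some lists carry a count at an unadjusted p under 0.05, which can include genes past the adjusted p but short of 2-fold. One control library stood apart from the others: across genes, log2 CPM of control 3 correlated with that of controls 1 and 2 at 0.982 and 0.984, against 0.9955 between controls 1 and 2. Control 3 was the lowest control for 58.4% of lower DEGs, 55.4% of higher DEGs and 45.8% of all genes tested, and its part in the results was not tested beyond leaving it out, after which 431 DEGs were higher and 759 lower.

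Lower DEGs also reached larger changes than higher DEGs. At least 4-fold differences were found for 134 higher and 273 lower DEGs, and at least 8-fold differences for 50 higher and 134 lower DEGs. At 16-fold or more, 26 genes were higher and 38 lower. The CPM of the groups did not overlap for any of the 482 higher DEGs and for 679 of the 688 lower DEGs, where 37.8% of all genes tested had no overlap. The plot of key genes by library shows how far apart the groups lay for those described next.

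**Figure D1:**
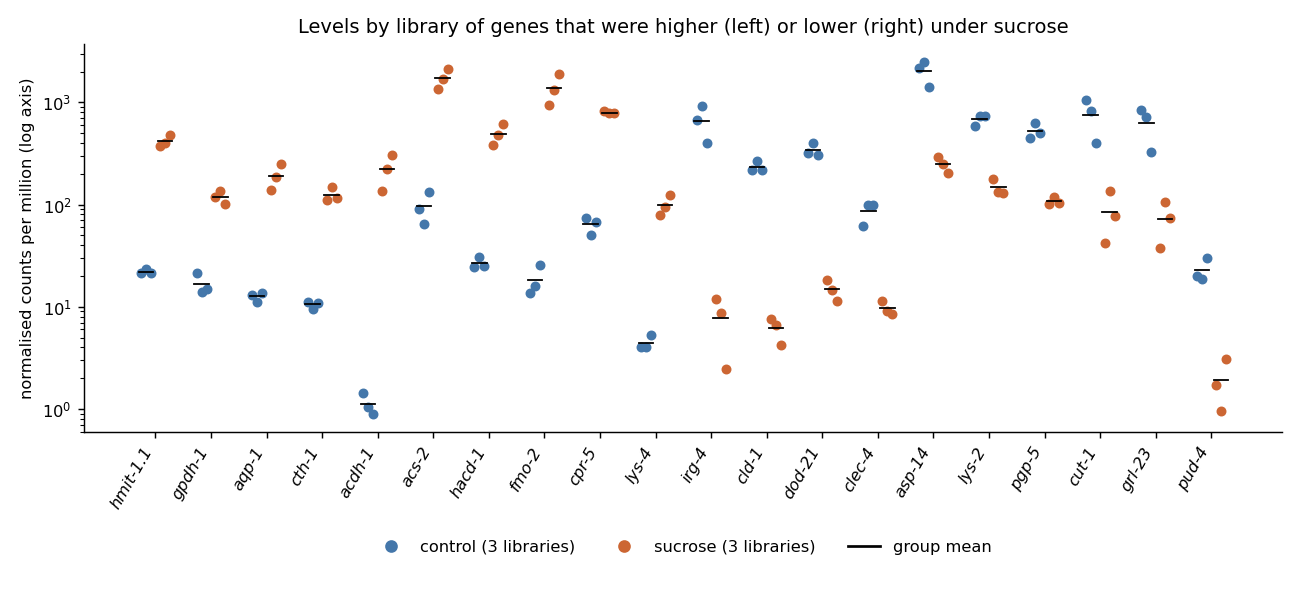
CPM (log axis) of key genes in each control and sucrose library, 1 point per library, with a bar at the group mean, those higher under sucrose on the left and those lower on the right. For hmit-1.1 the 3 control points lie between 21.3 and 23.5 CPM and the 3 sucrose points between 376 and 477 CPM, and no gene drawn has overlapping groups.

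Among 12 genes known from the response to hypertonic medium, 3 rose and none fell in edgeR or DESeq2, although 1 member had a lower level at an unadjusted p under 0.05. The inositol transporter gene hmit-1.1 (V:18516789-18523875, RefSeq WBcel235) rose most, from 21.5, 23.5 and 21.3 CPM to 376, 400 and 477 CPM. No sucrose library came near the control range, and the log2 fold change was 4.24 (SE 0.13, adjusted p = 1.1e-06). The glycerol-3-phosphate dehydrogenase gene gpdh-1, whose enzyme makes the precursor of glycerol, rose from 21.2, 14.1 and 15.1 CPM to between 100.2 and 136 CPM in the sucrose libraries (log2 fold change 2.82, SE 0.19). Its relative gpdh-2 rose by less, with a log2 fold change of 1.18 (SE 0.13). The median over the list was 0.15, and 5 of the 12 genes were higher and none lower at an adjusted p of 0.05 or less. Only these 3 were also past 2-fold. The kinase gene wnk-1 and the secreted regulator gene osm-11, which act upstream in this response, had log2 fold changes of -0.04 (adjusted p = 0.83) and -0.10 (adjusted p = 0.57).

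Genes of the step from glycerol-3-phosphate to glycerol rose with them. Both phosphatase genes tested here that are known to act on it, pgph-1 and pgph-2, were DEGs, pgph-2 at 35.8, 37.3 and 37.2 CPM in control and 343, 401 and 353 CPM in sucrose. The increase in pgph-2 was therefore nearly the same in every library (log2 fold change 3.32, SE 0.11, adjusted p = 1.1e-06), and pgph-1 rose by 3.51 (SE 0.22). A protein domain of theirs, annotated for a haloacid dehalogenase-like fold of small-molecule phosphatases, had 4 higher DEGs among 11 genes tested. The others were C45E5.1 (log2 fold change 4.82) and bigr-1 (1.55). Broader annotations of this fold held the same 4 higher genes among 13 and among 29 tested, the last with 1 lower. The aldo/keto reductase domain, of enzymes that reduce sugars and aldehydes, had 4 higher DEGs among 10 genes, K07C5.2 (2.45), Y39G8B.1 (1.47), F53F1.2 (1.26) and exc-15 (1.12). These domains were picked for their share of DEGs after the values were seen, so they are descriptions without a test.

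Of 10 aquaporins, the channels for water and glycerol, 3 rose and 1 fell. The gene aqp-1, for an intestinal water and glycerol channel, rose from 13.2, 11.2 and 13.5 CPM to 138, 186 and 250 CPM, a log2 fold change of 3.92 (SE 0.22, adjusted p = 1.3e-05). Another glycerol channel gene, aqp-7, rose by 1.73 (SE 0.11). The channel gene aqp-3 fell by 2.36 (SE 0.34), at levels of at most 2.49 CPM in every library. The third gene that rose, aqp-5 (1.1, adjusted p = 0.038), was not called after any single library was left out, and aqp-8 of the excretory system stayed short of a 2-fold change (0.69, adjusted p = 0.0026).

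Some sugar-handling genes rose as well. Among 15 sugar transporters and alpha-glucosidases, 3 rose and 1 fell, and besides hmit-1.1 the higher genes were the alpha-glucosidase genes aagr-1 and aagr-2, whose products cleave glucose from sugars. Levels of aagr-2 were 166, 153 and 125 CPM in control and 576, 637 and 837 CPM in sucrose, with no overlap (log2 fold change 2.21, SE 0.17). The increase in aagr-1 was 2.01 (SE 0.18). The sugar transporter gene swt-7 fell by 1.04 (SE 0.13; -0.97 and not called without control 2 or without sucrose 3), while the facilitated glucose transporter gene fgt-1 had a log2 fold change of 0.57 (adjusted p = 0.0048), short of 2-fold. Among 9 trehalose and glycogen genes, the trehalase gene tre-3 rose by 1.47 (SE 0.16), the trehalase gene tre-5 fell by 1.21 (SE 0.17) and the glycogen synthase gene gsy-1 was at 0.30 (adjusted p = 0.092).

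Many genes of central carbon metabolism were higher. Of 14 genes of glycolysis and gluconeogenesis, 6 rose and 1 fell, with a median log2 fold change of 0.87 against -0.02 for all genes. Both phosphoenolpyruvate carboxykinase genes, of the step that leads into gluconeogenesis, rose by 1.51 (pck-2, SE 0.13) and 1.504 (pck-1, SE 0.13). Levels of pck-2 were 847, 670 and 744 CPM in control and 1932, 2029 and 2468 CPM in sucrose. The glyceraldehyde-3-phosphate dehydrogenase gene gpd-3 (1.27), the pyruvate kinase gene pyk-2 (1.26), the pyruvate carboxylase gene pyc-1 (1.104) and the aldolase gene aldo-2 (1.06) made up the rest of the higher genes, so enzymes of both directions of the pathway rose. The phosphofructokinase gene pfk-1.2 fell by 1.02 (SE 0.22). It was not called without control 3 (-0.95), sucrose 1 (-0.90) or sucrose 2 (-0.99), nor was aldo-2 without sucrose 3 (0.96), and 2 genes of the list were lower without control 1 or without sucrose 3.

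In the citric acid and glyoxylate cycles, 7 of 21 genes rose and none fell, by DESeq2 either, with no member lower at an unadjusted p under 0.05. The median was 0.60, and 15 of the 21 genes were higher at an adjusted p of 0.05 or less when no fold minimum was set. Isocitrate lyase and malate synthase, the pair of reactions that lets worms make sugar from fat, are joined in the product of icl-1, which rose from 1007, 671 and 1106 CPM to 3202, 3747 and 4844 CPM (log2 fold change 2.08, SE 0.21). Next came the aconitase gene aco-1 (1.53, SE 0.09), the malate dehydrogenase gene mdh-2 (1.47, SE 0.09) and the citrate synthase gene cts-1 (1.43, SE 0.09). Each of these had control and sucrose libraries far apart, as in cts-1 with 699, 715 and 784 CPM against 1941, 1952 and 2039 CPM. The remaining higher genes were idh-1, aco-2 and sdha-1. Subunits of the respiratory chain and ATP synthase moved the same way by less: 31 of 43 were higher at an adjusted p of 0.05 or less, their median was 0.50, and sdha-1, at 1.06, was the only one past 2-fold, and only with control 3 included (0.96 without it). Of 6 pentose phosphate pathway genes, T25B9.9 (1.27) and tkt-1 (1.04) rose, and gspd-1 of the first step was at 0.41 (adjusted p = 0.023).

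Among 10 genes of propionate breakdown, 5 rose and none fell, with a median of 1.09, and no member was lower at an unadjusted p under 0.05. The shunt gene acdh-1, which is known to come on when vitamin B12 is short or propionate is in excess, was at 1.45, 1.05 and 0.888 CPM in control and at 136, 223 and 304 CPM in sucrose. Its log2 fold change was 7.61 (SE 0.36, adjusted p = 5e-06). Another shunt enzyme gene, hphd-1, rose by 2.54 (SE 0.20). Both propionyl-CoA carboxylase genes, of the B12-dependent route, also rose, pcca-1 by 1.28 (SE 0.10) and pccb-1 by 1.29 (SE 0.09). So did mce-1, and genes of both routes were higher. The methylmalonyl-CoA mutase gene mmcm-1 was at 0.75 (adjusted p = 0.0026).

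Methionine is linked to propionate because its carbon can leave through transsulfuration. Of 12 genes of the methionine cycle and transsulfuration, cth-1 and sams-1 rose. Cystathionine gamma-lyase, the product of cth-1, makes cysteine, and its mRNA went from 11.2, 9.62 and 11.01 CPM to 110, 149 and 117 CPM (log2 fold change 3.56, SE 0.16, adjusted p = 4.2e-06). The S-adenosylmethionine synthetase gene sams-1 rose by 1.13 (SE 0.14; 0.99 and not called without control 3), and the cysteine synthase-like gene cysl-2 by 1.73 (SE 0.19). Across the aminotransferase class I and II domain 5 of 15 genes rose, and the tyrosine aminotransferase gene tatn-1 fell by 1.88 (SE 0.12).

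Fat genes split by step. Of the 7 fatty acid desaturase genes, 5 rose: fat-5, which acts on palmitic acid, by 1.54 (SE 0.26), and the 4 genes of the polyunsaturated route, fat-3 (1.46), fat-4 (1.31), fat-2 (1.19) and fat-1 (1.03). Without sucrose 3, fat-2 (0.96) and fat-1 (0.82) were not called. The stearoyl desaturase gene fat-6 was at 537, 452 and 558 CPM in control and 377, 315 and 292 CPM in sucrose. Those groups did not overlap, but the log2 fold change of -0.65 (adjusted p = 0.007) was short of 2-fold. For fat-7 it was 1.18 (adjusted p = 0.18), with sucrose libraries from 0.664 to 4.51 CPM. Of 10 elongase genes, 4 rose, led by elo-6 (2.37, SE 0.14) and elo-5 (2.09, SE 0.10), which make branched-chain fatty acids, and elo-4 fell by 1.83 (SE 0.28). In fat synthesis itself, the fatty acid synthase gene fasn-1 was at 0.17 (adjusted p = 0.28), the acetyl-CoA carboxylase gene pod-2 at 0.96 and the regulator gene sbp-1 at 0.84, while the triglyceride synthesis gene dgat-2 rose by 1.11 (SE 0.25; 0.87 without control 3 and 0.89 without sucrose 3, not called).

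Some genes that break fat down rose alongside. List medians were 0.34 for mitochondrial carnitine and beta-oxidation genes and 0.60 for peroxisomal beta-oxidation, but 0.08 for acyl-CoA synthetases and -0.21 for lipases. Of the synthetases 6 were higher and 3 lower at an adjusted p of 0.05 or less. Among 10 acyl-CoA dehydrogenases, with a median of 0.02, only acdh-1 was a DEG. In the mitochondrial carnitine and beta-oxidation list 4 of 13 genes rose (3 by DESeq2) and cpt-4 fell. The rise of cpt-3 was not called without control 1, control 2, sucrose 2 or sucrose 3. The fall of cpt-4 was not called without control 1, control 3 or sucrose 3. Levels of hacd-1, a hydroxyacyl-CoA dehydrogenase gene, were 24.8, 30.9 and 24.9 CPM in control and 384, 481 and 620 CPM in sucrose. Its log2 fold change was 4.21 (SE 0.20, adjusted p = 4.7e-06). The enoyl-CoA hydratase gene ech-7 rose by 2.33 and the thiolase gene kat-1 by 1.47. Among 19 acyl-CoA synthetase genes, which activate fatty acids for use, 4 rose, and acs-2 went from 91.3, 65.1 and 132 CPM to 1365, 1699 and 2104 CPM (log2 fold change 4.16, SE 0.27). In peroxisomal beta-oxidation, pmp-5 (2.31) and acox-1.1 (1.26) rose and 14 of 21 genes were higher at an adjusted p of 0.05 or less, with 4 DEGs without control 1 or without control 2. Lipases went both ways, with lipl-3 (1.81), lipl-5 (1.41) and lipl-4 (1.20) higher and lipl-8 (-2.94), lipl-2 (-1.53) and fil-1 (-1.06) lower among 16 tested. Of these lipl-4 was lost without control 2, control 3, sucrose 2 or sucrose 3 and fil-1 without control 1, control 2, sucrose 1 or sucrose 2, and 5 lipases were lower without sucrose 3. The intracellular lipase gene atgl-1 was at -0.25 (adjusted p = 0.19).

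**Figure D2:**
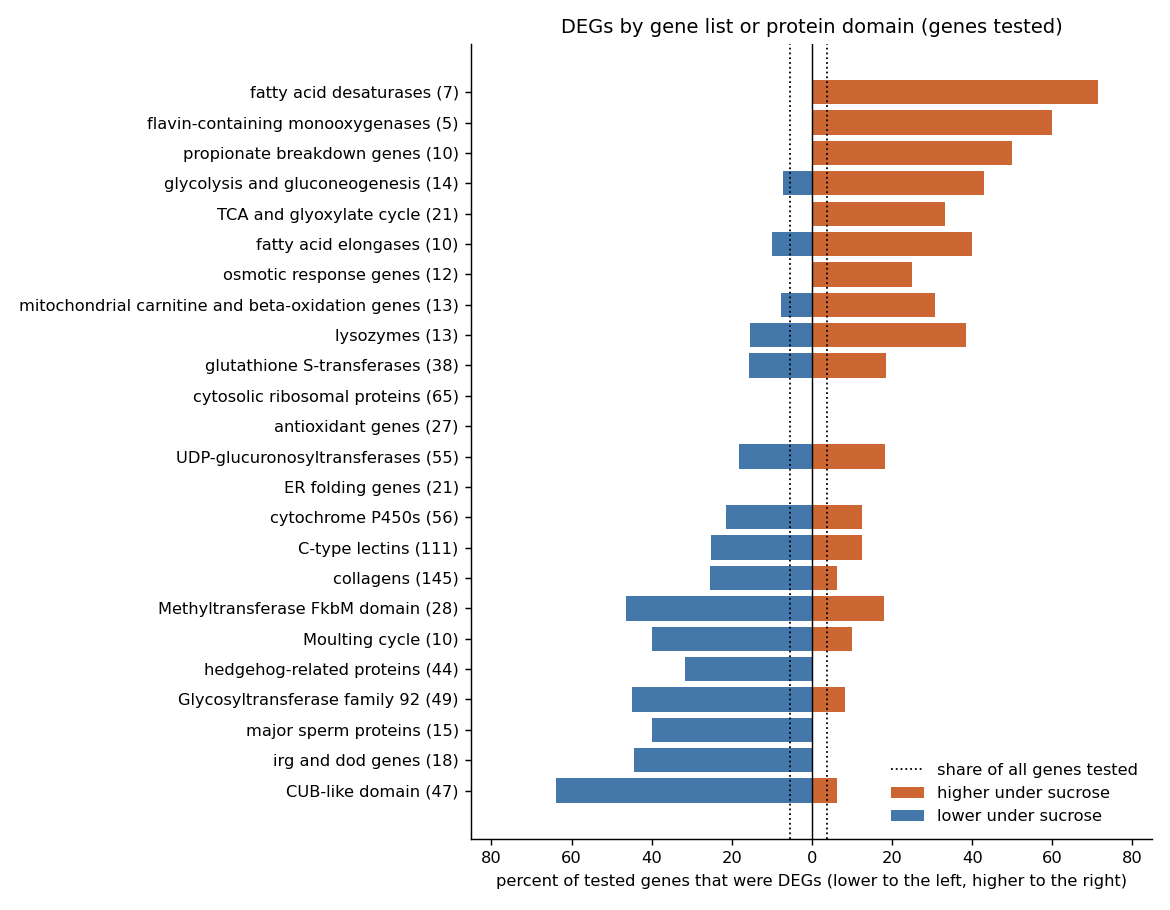
Higher DEGs (bars to the right) and lower DEGs (bars to the left) as a percentage of the genes tested in each gene list or protein domain, with the number tested in brackets and dotted lines at the shares of all 12745 genes. Higher DEGs are 71.4% of the desaturases, 50% of the propionate genes and 42.9% of glycolysis and gluconeogenesis, against 3.78% of all genes, and lower DEGs are 44.4% of the irg and dod genes and 40% of the major sperm proteins, against 5.4%.

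Detoxification families were divided between rises and falls. Of 5 flavin-containing monooxygenase genes, 3 rose, and fmo-2, whose product oxidises small nitrogen and sulfur compounds, went from 13.7, 15.9 and 25.6 CPM to 940, 1318 and 1887 CPM (log2 fold change 6.23, SE 0.34). Among 56 cytochrome P450 genes 7 rose and 12 fell, with cyp-13A12 (3.04), cyp-32B1 (2.64) and cyp-37A1 (2.32) the named higher genes and cyp-13A4 (-5.87), cyp-13A6 (-3.25) and cyp-14A5 (-1.94) the lower. Of 55 UDP-glucuronosyltransferases 10 rose and 10 fell, from ugt-17 at 2.69 (SE 0.14) to ugt-8 at -2.37 (SE 0.15). The number of higher UDP-glucuronosyltransferases was 6 without control 3 and 6 without sucrose 3. Among 38 glutathione S-transferases 7 rose and 6 fell: gst-4, a reporter gene for oxidative stress, rose by 2.09 (SE 0.12) and gst-38 fell by 3.87 (SE 0.26). The number of higher glutathione S-transferases was 5 to 6 when single libraries were left out and 6 by DESeq2. Members of these families resemble each other, and how reads shared by relatives were counted is not given in the sources used here, so the split between close relatives is uncertain.

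Few general stress genes were called, where 9.18% of all genes tested were DEGs, so a short list with 1 DEG or none is not far from that share. Of 19 heat shock genes only hsp-17 rose (1.03, SE 0.16; 0.92 without control 3 and 0.90 without sucrose 3, not called), and none fell by edgeR or DESeq2, with 3 lower at an unadjusted p under 0.05. Levels of hsp-70 ranged from 92.8 to 620 CPM among the sucrose libraries, the highest being sucrose 3, so its log2 fold change of -0.58 had an adjusted p of 0.55. The endoplasmic reticulum chaperone gene hsp-4 was at -0.75 (adjusted p = 0.012), and no ER folding gene of 21 was a DEG by either tool, with 3 lower and none higher at an unadjusted p under 0.05. None of 27 antioxidant genes was a DEG by edgeR or DESeq2 either. At an unadjusted p under 0.05, 4 were higher and 2 lower, and at an adjusted p of 0.05 or less 2 and 1. The regulator gene skn-1 was at -0.62 (adjusted p = 0.003). No DEG was found by either tool among 65 cytosolic ribosomal proteins and 24 proteasome subunits, where no gene had an unadjusted p under 0.05. Among 11 mitochondrial stress genes there was none either, but all 11 lay above 0. Of these, 5 had a higher level at an unadjusted p under 0.05, 3 of them at an adjusted p of 0.05 or less.

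Genes of defence against microbes went both ways. Of 18 genes named for infection response or for regulation downstream of the insulin pathway (irg and dod genes), 8 fell and none rose by either tool. At an adjusted p of 0.05 or less 1 was higher, short of 2-fold, and the median of the 18 was -0.97. The gene irg-4 fell from 668, 913 and 401 CPM to 11.9, 8.75 and 2.45 CPM and dod-21 from 317, 403 and 305 CPM to 18.5, 14.6 and 11.4 CPM. Neither overlapped, and the log2 fold changes were -6.42 (SE 0.55) and -4.53 (SE 0.20). Among 111 C-type lectins, secreted sugar-binding proteins, 28 fell and 14 rose: clec-2 (-6.98), clec-74 (-6.49) and clec-76 (-5.57) fell most among those named, and clec-166 rose by 3.42 (SE 0.18). Both pud genes fell, with log2 fold changes of -3.15 (pud-3, SE 0.48) and -3.58 (pud-4, SE 0.37), and since they belong to one family their counts may not be separate.

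Among 13 lysozymes, which cut bacterial cell walls, 5 rose and 2 fell. The lys-4 mRNA rose from 4, 4.04 and 5.28 CPM to 79.7, 94.8 and 123.2 CPM (log2 fold change 4.48, SE 0.21, adjusted p = 4.7e-06). For ilys-2 the control libraries held 3 counts in all against 460 in sucrose, a ratio of 155 (95% interval 52.7 to 755, counting error only). For lys-10 they held 3 counts against 75, a ratio of 25.3 (8.32 to 125). Among the lower members, lys-2 fell from 591, 738 and 731 CPM to 179, 134 and 131 CPM (-2.21, SE 0.15). Proteases of the gut also went both ways: of 24 cysteine and aspartyl proteases, cpr-5 (3.63, SE 0.15), cpr-8 (2.88) and cpr-4 (1.82) were among 6 that rose, and asp-14 fell from 2162, 2501 and 1418 CPM to 291, 249 and 204 CPM (-3.03, SE 0.22). The thaumatin-like genes thn-2 (3.90, SE 0.32) and thn-1 (2.94, SE 0.33) rose.

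Lower DEGs were a larger share of some protein domains than of any list of at least 10 genes, and since domains were ranked after the values were seen they are given without a test. Of 47 genes tested with a CUB-like domain, a secreted domain common in worm pathogen-response genes that irg-4 and dod-21 also carry, 30 fell (63.8%, against 5.4% of all genes) and 3 rose, and the median log2 fold change was -1.43. Leaving out single libraries gave 23 to 30 lower genes. Several lay side by side on chromosome IV, such as cld-1, dod-21 and dod-24 (IV:12935011-12941354) and F55G11.2, mbug-1 and dod-17 (IV:12967445-12978343). Of these, mbug-1 went from 2763, 3281 and 1986 CPM to 389, 348 and 221 CPM. The control and sucrose ranges did not overlap for any of these 6 neighbours, whose log2 fold changes ran from -5.26 (cld-1) to -2.37 (dod-17, not called without control 2, adjusted p = 0.059). On chromosome V a further run of 6 CUB-like genes from dct-17 to cld-9, irg-5 among them (-4.07, SE 0.39), was lower throughout. Of these, dct-17 was not called without control 1, control 2 or sucrose 2, and F35E12.9 not without control 2 (-0.92) or sucrose 2 (-0.97). K08D8.3 went the other way, with 8.40, 9.02 and 4.74 CPM in control and 33.2, 33.3 and 31.4 CPM in sucrose.

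Genes for glycan-modifying enzymes were another such group. Some proteins with a glycosyltransferase family 92 domain are known to add galactose to glycans, and those with an FkbM domain are predicted to methylate sugars or their relatives. Of 77 genes tested with either domain 35 fell and 9 rose. On chromosome V 25 of 43 fell, and 5 of the 9 higher genes lay on chromosome IV. The family 92 gene bah-1, known for its part in bacterial biofilm attachment to the worm surface, had no count in any sucrose library and 110 counts over the control libraries, which made it at least 36.3-fold lower against 3 counts over the group. Its relative bah-2 fell by 3.28 (SE 0.58). The FkbM gene ZK1025.3 fell from 8.25, 11.4 and 4.89 CPM to 0.149, 0.101 and 0.0511 CPM (-6.26, SE 0.50). Family members rose as well: gtnt-13, of family 92, went from 0.850, 0.947 and 0.740 CPM to 18.1, 21.1 and 18.8 CPM (4.51, SE 0.20) and the FkbM gene C33H5.1 from 0.350, 0.598 and 0.247 CPM to 7.09, 9.90 and 7.66 CPM (4.35, SE 0.32).

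Neighbours moved together in blocks. On chromosome V, 11 genes in a row from gtnt-3 to gtnt-21 (V:7252244-7295370) were lower DEGs with log2 fold changes from -4.46 to -1.95, and they held both kinds of enzyme, for example C13A2.9 with an FkbM domain, at 51.4, 44.0 and 20.9 CPM in control and 1.24, 6.08 and 2.40 CPM in sucrose. The next gene, srj-32, was not a DEG, and the following 3, gtnt-20, F07G11.2 and F07G11.1, were lower again, although F07G11.2 was not called without control 1, control 2, sucrose 1 or sucrose 3. Another 6 lower neighbours near one end of chromosome V (V:579277-595677) joined family 92 genes with nstp-7, a nucleotide-sugar transporter gene that supplies such enzymes (-4.03 to -3.22 over the block). A block of 6 on chromosome IV (IV:9294899-9309075) did the opposite. There F49C12.1, F49C12.2, F49C12.3, F49C12.4, gtnt-30 and F49C12.6 rose by 2.30 to 4.77, with F49C12.4 at 1.05, 1.55 and 0.444 CPM in control against 22.8, 23.4 and 18.6 CPM in sucrose. Counting every run of at least 3 neighbouring DEGs of one direction, 24 runs with 96 genes were lower and 10 runs with 34 genes were higher. Other runs joined gst-15, gst-12 and gst-16 and the P450 genes cyp-35A3 and cyp-35A4 among lower genes, and cyp-25A1, cyp-25A2 and cyp-25A3 and the esterase genes cest-1.1, cest-2.1 and cest-2.2 among higher genes. Of these cyp-35A3 was not called without control 2 and cyp-25A3 not without control 1, control 2 or sucrose 3.

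**Figure D3:**
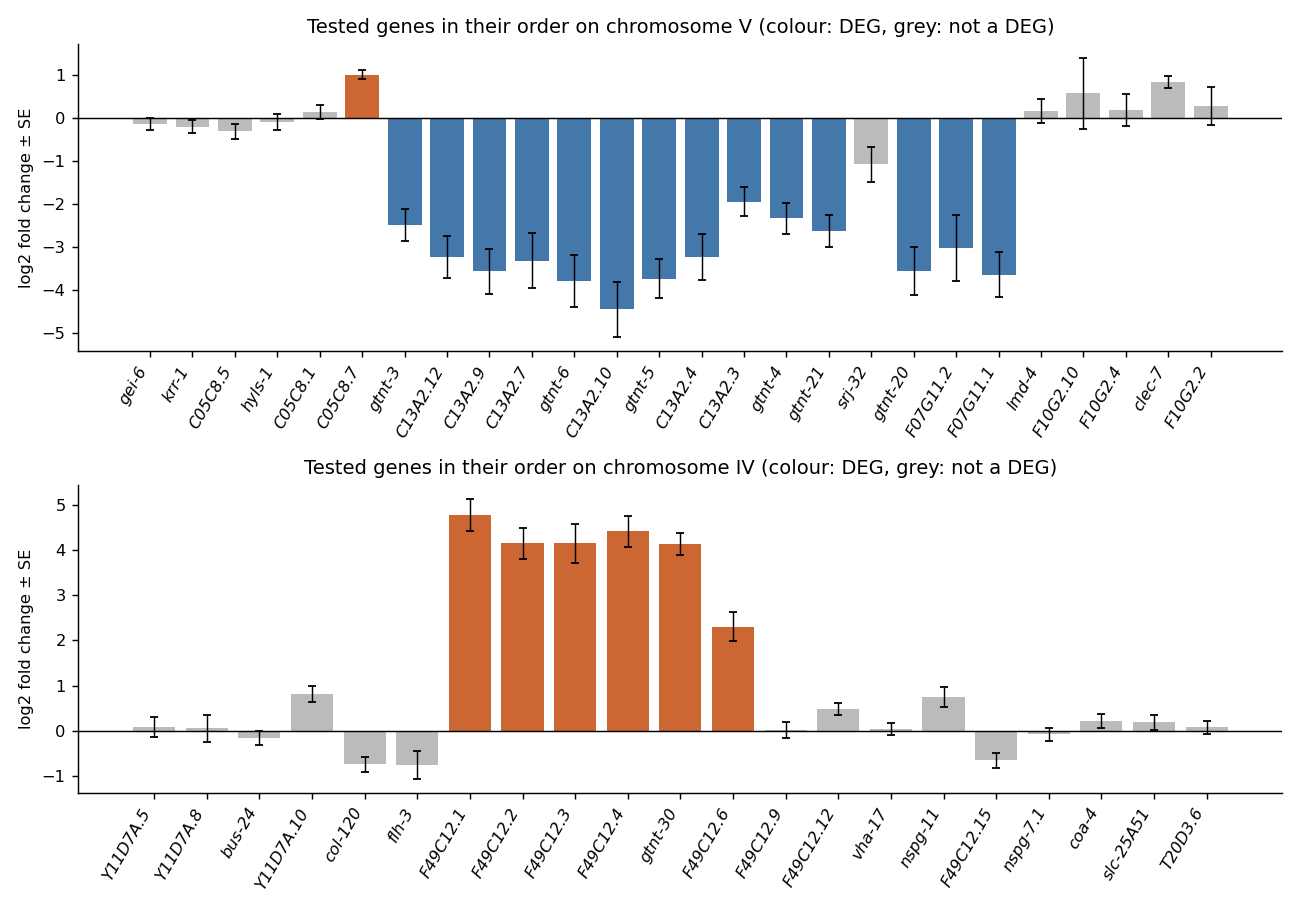
Log2 fold change of tested genes in their order along chromosome V around the gtnt-3 to gtnt-21 block and along chromosome IV around the F49C12.1 to F49C12.6 block, as bars with the SE, coloured for DEGs and grey for genes not called. The V block lies between -4.46 and -1.95 and the IV block between 2.30 and 4.77, and C05C8.7 (not called without control 3 or without sucrose 3) and the genes after srj-32 up to F07G11.1 are the only other DEGs drawn.

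Chromosome V held the highest shares of DEGs in both directions, 6.47% of its 2550 tested genes higher and 9.53% lower. Chromosome IV followed with 4.45% and 6.3%. On chromosome I the shares were 1.97% and 3.99%, and on X 2.99% and 3.15%. Chromosome V is known for its many expanded gene families, of the kinds described above.

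Cuticle genes fell in part. Of 145 collagens 37 fell and 9 rose, with a median of -0.27, and without control 3 the counts were 45 and 5. A set of 18 collagens fell at least 4-fold, with log2 fold changes from -3.49 to -2.65, among them col-114 at 237, 183 and 89.7 CPM in control and 6.79, 27.5 and 10.98 CPM in sucrose. In all 18, control 3 was the lowest control library. The other 19 fell 2- to 4-fold, for example col-71 at 229, 246 and 242 CPM in control and 116, 90.9 and 91.1 CPM in sucrose (-1.27, SE 0.12). Those that rose included rol-6 and sqt-1, cuticle collagens whose mutations alter body shape, by 1.16 each, and col-90 by 1.49 (SE 0.13). The adult collagen gene col-19 was at -0.59 (adjusted p = 0.16) and the larval collagen gene dpy-7 at 0.32 (adjusted p = 0.074).

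Some other genes for secreted proteins of the epidermis fell. Of the 8 epidermis markers 1, the collagen rol-6, rose and none fell by either tool or at an unadjusted p under 0.05, with a median of 0.35 and a summed level of 568 to 590 CPM in control and 760 to 765 CPM in sucrose. Of 44 hedgehog-related proteins, secreted proteins of the worm epidermis, 14 fell and none rose by either tool. At an unadjusted p under 0.05, 6 were higher, 5 of them at an adjusted p of 0.05 or less. The list median was -0.03. The gene grl-23 went from 835, 718 and 330 CPM to 37.7, 106 and 74.7 CPM (-3.11, SE 0.42) and wrt-7 from 10.2, 10.7 and 3.55 CPM to 0.149, 0.603 and 0.153 CPM (-4.72, SE 0.59). In all 14 control 3 was the lowest control, and in 12 of them sucrose 1 was the lowest sucrose library. Leaving out single libraries gave 13 to 15 lower members. The 3 cuticulin genes that fell, for structural proteins of the cuticle, were cut-1 (-3.15, SE 0.45), cut-6 (-1.87) and cut-5 (-1.68), with cut-1 at 1042, 815 and 399 CPM in control and 41.7, 135 and 76.9 CPM in sucrose. Moulting-cycle domain genes mltn-6, mltn-7 and mltn-8 were lower neighbours, and nas-28, an astacin protease gene, fell by 2.37 (SE 0.35). Of the 27 astacins 4 fell and 1 rose, with a median of 0.02, and 2 fell without control 2, sucrose 1, sucrose 2 or sucrose 3. Of 19 moulting regulators none was a DEG by edgeR or DESeq2, with 2 higher and 1 lower at an unadjusted p under 0.05; lin-42, which cycles with each moult, was at 300, 225 and 142 CPM in control and 195, 213 and 215 CPM in sucrose, so control 3 was again the lowest control.

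Some sperm genes fell. Of 15 major sperm protein genes 6 fell and none rose by either tool or at an unadjusted p under 0.05, with a median of -0.96, and all 15 had values below 0. Their summed level was 86.7 to 136 CPM in control and 61.3 to 65.0 CPM in sucrose. The number that fell was 10 without control 1, 0 without control 2, 4 without control 3, 3 without sucrose 1, 3 without sucrose 2 and 5 without sucrose 3, and the genes are near-identical copies. Of 35 other sperm genes 5 fell, among them spe-11 at 15, 18.7 and 19.5 CPM in control and 8.42, 8.40 and 9.75 CPM in sucrose (log2 fold change -1.002, SE 0.17). It was 2 of these without control 2, sucrose 1 or sucrose 2 and 3 without control 3 or sucrose 3, and spe-11 was at -0.97 to -0.95 and not called without control 2, control 3, sucrose 1 or sucrose 2. Of the 22 oocyte genes and 23 germline genes none was a DEG by edgeR or DESeq2, with 2 and 8 lower and none higher at an unadjusted p under 0.05, and their medians were -0.45 and -0.42. Control 3 had the highest oocyte gene level of the 6 libraries: relative to the control mean, the median log2 level was -0.26, -0.25 and 0.51 in the controls and -0.13, -0.35 and -0.76 in sucrose. Of the 5 yolk protein genes 1 rose and none fell by either tool or at an unadjusted p under 0.05, with a median of 0.89. It was vit-2, from 1616, 1520 and 2187 CPM to 4624, 4972 and 5923 CPM (1.54, SE 0.15), while vit-6 (0.84, adjusted p = 0.0024) was short of 2-fold. Without control 3 the number that rose was 2, and without sucrose 3 it was 3.

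Most tissue markers were not called, where 9.18% of all genes tested were DEGs, so a short list without a DEG is not far from that share. Of 9 intestine markers ges-1, a gut esterase (1.30, SE 0.18), and pho-1, a gut phosphatase (1.08; 0.96 without control 3 and 0.99 without sucrose 1, not called), rose, and the peptide transporter gene pept-1 fell by 1.41 (SE 0.23). The median of the 9 was -0.02, with 4 above 0 and 5 below, while their summed level, which abundant members weigh on most, was 5960 to 7520 CPM in control and 4560 to 4870 CPM in sucrose. None of 8 body wall muscle markers, 7 pharyngeal muscle markers or 16 neuron markers was a DEG by edgeR or DESeq2, with 1, 4 and 2 higher and 1, 0 and 0 lower at an unadjusted p under 0.05. Neuron markers were lowest in control 3, whose median log2 level was -0.45 relative to the control mean, against 0.23 and 0.18 in the other controls and 0.25, 0.35 and 0.38 in sucrose. The part of these shifts in the other results was not tested. Embryo markers had enough counts for a test in 2 of 8 genes, and neither was a DEG by edgeR or DESeq2 or had an unadjusted p under 0.05.

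**Figure D4:**
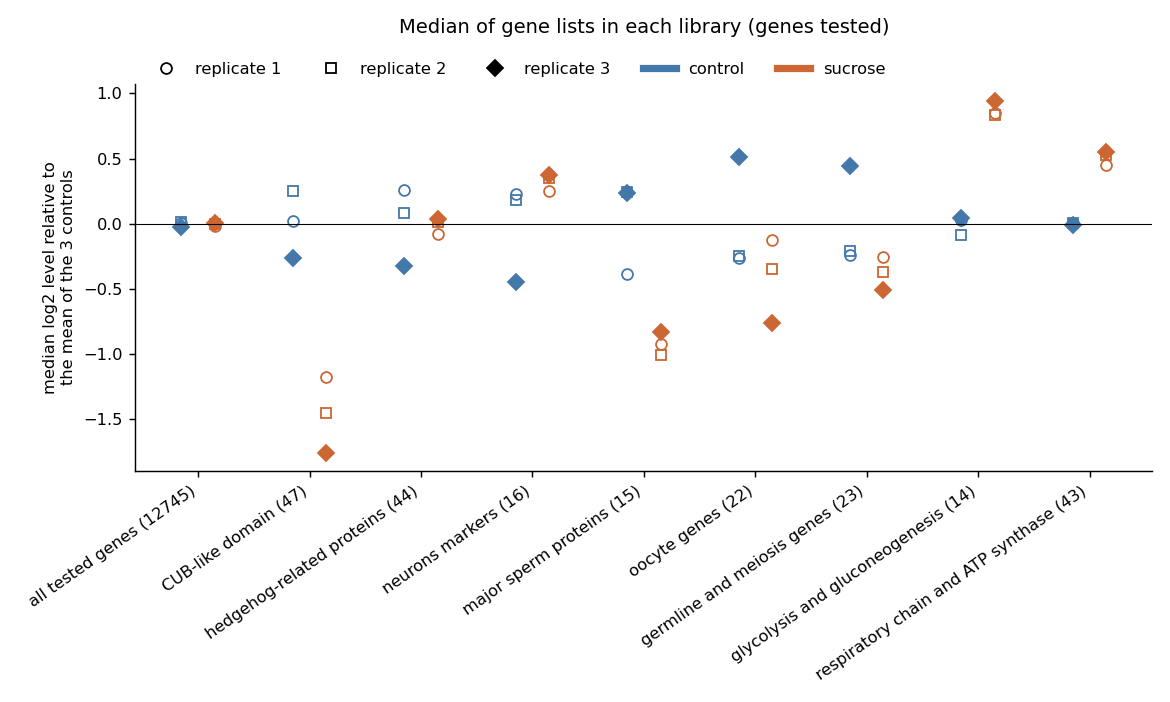
Median log2 level of the genes of each list in each library, relative to the mean of the 3 controls, with 1 point per library and the number of genes tested in brackets. Glycolysis genes lie between 0.83 and 0.94 in the sucrose libraries, and CUB-like genes between -1.76 and -1.18, whereas oocyte and germline genes are highest in control 3, at 0.51 and 0.44.

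Signalling genes changed one by one, where 3.78% of all genes tested rose and 5.4% fell. Of 19 insulin-like peptide genes, daf-28 (1.62, SE 0.25) and ins-5 (1.25) rose and ins-34 (-4.91, SE 0.47), ins-37 (-1.52) and ins-35 (-1.13) fell. Call losses concerned ins-35 without control 2 or sucrose 1 and ins-37 without any library but sucrose 3. The mRNA of ins-34 went from 3.40, 3.64 and 7.11 CPM to 0.149, 0.201 and 0.102 CPM. Of 10 genes of the insulin pathway none was a DEG by either tool. At an adjusted p of 0.05 or less 1 was higher and 1 lower, both short of 2-fold. The receptor gene daf-2 and its target daf-16 were both at -0.07. The dauer hormone enzyme gene daf-9 rose by 1.31 (SE 0.18). Among 150 nuclear hormone receptors 8 rose and 4 fell (13 rose without control 1, and 2 fell without control 2 or without sucrose 2). The higher ones included nhr-57 (1.995, SE 0.22), a known target of the hypoxia factor HIF-1, as cysl-2 is. Of 10 HIF-1 pathway and sulfide genes only 2 rose and none fell by either tool, with a median of 0.315. At an adjusted p of 0.05 or less 2 of the 10 were higher and 1 lower. As shares of the receptors, 5.33% rose and 2.67% fell. For nhr-271 the controls held 2 counts in all against 66 in sucrose, a ratio of 33.4 (8.88 to 281). Few neuropeptide genes changed: no FMRFamide-like gene of 28 was a DEG by either tool, with 2 higher at an unadjusted p under 0.05, and among 57 others nlp-16 rose (1.1) and nlp-76 (-2.09) and nlp-39 (-1.31) fell, with nlp-16 lost without control 3 (0.92) and nlp-39 without control 2 or sucrose 1. Of 248 F-box, MATH and BTB genes 11 rose and 11 fell (4.44% each), near the shares of all genes. Among them math-10 was at 5.55 (SE 0.36). Without sucrose 3, 5 of the 248 genes rose, and 4, 7 and 6 fell without control 2, sucrose 1 and sucrose 2.

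The same sucrose dose was also given on top of stearic acid, in libraries that share none with those above. There 477 genes were higher (3.75% of 12714) and 788 lower (6.2%), 9.95% in all. Of the 482 genes higher with sucrose alone, 160 were higher there too, which is 33.2% of the first list and 33.5% of the second, where 3.72% of genes tested in both were higher. Of the 688 lower genes, 385 were lower there too, 56.0% of the first list and 48.9% of the second, where 6.05% of genes tested in both were lower. Opposite calls were found for 13 higher and 25 lower genes. The median log2 fold change of the higher DEGs went from 1.46 to 0.70 and that of the lower DEGs from -1.67 to -1.40.

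The difference between both changes was tested gene by gene as the interaction of sucrose and stearic acid over the 12 libraries, which was called for 15.6% of 13094 genes, 2048 in all and 1331 without sucrose 2, 1312 without stearic acid 3 and 1296 without sucrose-stearic acid 1. Of the 1170 DEGs 461 (39.4%) had such a difference. The DEGs were chosen for a large change with sucrose alone, which the difference subtracts, so a smaller change on stearic acid is favoured by that choice, in the medians above as well, and the signs are given as a description. The difference was negative, a smaller rise or a fall on stearic acid, for 239 of the 245 higher DEGs concerned, and positive for 181 of the 216 lower DEGs concerned. Genes of fat use were among them: acs-2 changed by 4.16 alone and 0.38 on stearic acid (difference -3.80, adjusted p = 2.2e-06) and hacd-1 by 4.21 and 0.11 (-4.10). The water and glycerol channel gene aqp-1 was another, with 3.92 and 0.10 (-3.83). In the citric acid and glyoxylate cycles 14 of 21 genes had a difference, and on stearic acid none was a DEG by edgeR or DESeq2, although 14 were higher at an unadjusted p under 0.05. The desaturase median was 1.19 alone and -0.45 on stearic acid. These osmotic genes rose there too, with log2 fold changes of 5.13 for hmit-1.1, 2.64 for gpdh-1 and 1.56 for gpdh-2, and the difference was 0.88 for hmit-1.1 (adjusted p = 0.0018), -0.18 for gpdh-1 (adjusted p = 0.67) and 0.37 for gpdh-2 (adjusted p = 0.13).

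Lower families held up differently from each other. Of the CUB-like genes 34 were lower on stearic acid, with a median of -1.86. Of the 145 collagens 55 were higher and 21 lower on stearic acid with a median of 0.67, against 9, 37 and -0.27 with sucrose alone, and 62 had a difference. All 18 strongly lower collagens were lower there too, whereas 6 of the 19 collagens that fell 2- to 4-fold with sucrose alone were higher and 1 was lower, with a positive difference for 14. All 9 higher collagens were higher again. Major sperm proteins had 1 lower DEG there, a median of 0.29 and a difference for 11 of 15, and the other sperm genes had a median of 0.24, a difference for 14 of 35 and no lower DEG by edgeR or DESeq2, with 4 lower at an unadjusted p under 0.05. The pud genes reversed: pud-3 was at 2.17 and pud-4 at 2.07 on stearic acid, differences of 5.30 and 5.64.

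**Figure D5:**
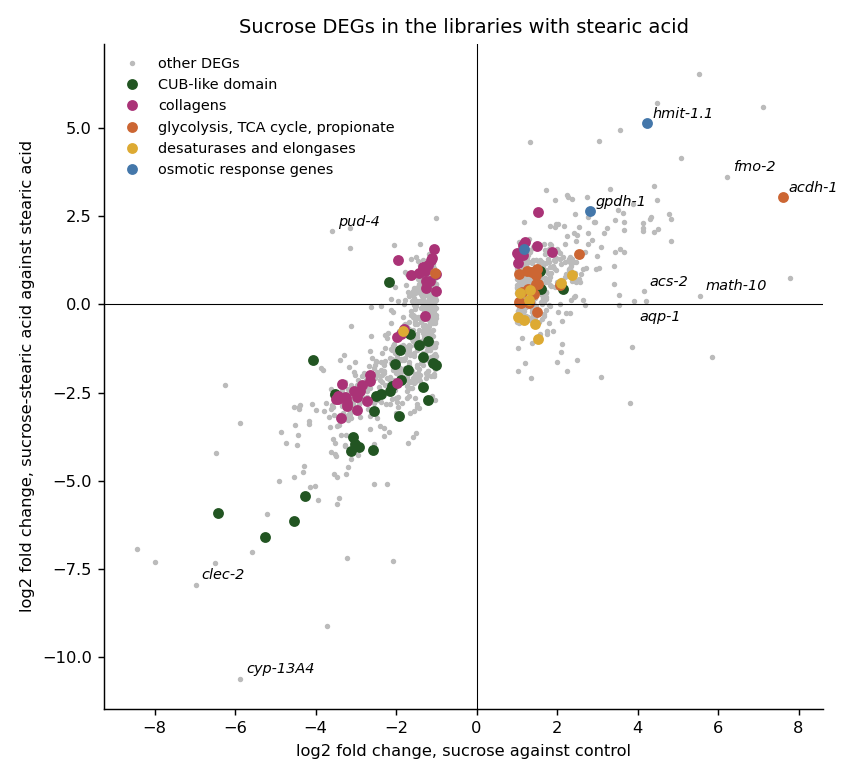
Log2 fold change of sucrose on stearic acid (vertical axis) against that of sucrose alone (horizontal axis) for the sucrose DEGs tested in both, 1 point per gene, coloured by gene group. The osmotic gene hmit-1.1 lies at 4.24 and 5.13 and the CUB-like genes lie mostly low on both axes, whereas acs-2 and aqp-1 lie near 0 on the vertical axis and pud-4 lies at -3.58 and 2.07.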

How the data were processed

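Per the labels, RNA of whole L4 worms was extracted with Trizol and libraries were made with an Illumina TruSeq kit. Per the methods, the authors removed ribosomal, adapter and low-quality reads and mapped the rest to the WBcel235 assembly with TopHat. The authors deposited a whole-series table with an unnormalized count and an FPKM value for each gene and library. The FPKM was scaled by the authors to gene length and library size. Which tool counted the reads, whether it used strand and what it did with reads that fit several places are not given in the sources used here. The table's columns of the authors' own calls (FDR and log2 fold change) were not used, nor were 3 tables of single comparisons, whose 15504 count values all equal those of the main table.

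A name was found for 15374 of the 16196 genes, and the other 822 go by their ID. The names are those of the study's supplementary sheets and the annotation in the table, matched to RefSeq WBcel235. Both sources named 1343 IDs and gave the same gene for 1325 (98.7%). The 411 genes assembled by the authors were kept. Genes without a row or below the count filter are not analysed here.

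The 6 libraries were filtered with filterByExpr, scaled by TMM and tested by quasi-likelihood in edgeR 4.0.16 (R 4.3.3). To be a DEG, a gene had to change at least 2-fold with a p, adjusted after Benjamini and Hochberg, of at most 0.05. Sucrose-stearic acid against stearic acid was fitted in the same way, and the interaction in those 12 libraries. Alternatives were DESeq2 1.42.0, other scalings and filters, limma 3.58.1 on log2(FPKM + 1) and log2(FPKM + 0.1), a stricter adjusted p of 0.01, no fold minimum, all 15 libraries in one fit and leaving out each library. The CPM printed use TMM library sizes. The script was tested on simulated data.

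The genes, lists and domains were chosen with earlier results of these data known. Named genes were the 12 higher and 12 lower DEGs with the largest change among those whose mean normalized count reached 50 in either group and whose groups did not overlap, up to 3 DEGs per list and direction with the smallest adjusted p, and key members of each list. Further genes, named for a domain, a run of neighbours, a list count or a ratio, were chosen after their values were seen. Domains were those of at least 10 tested genes in the table's annotation, and neighbours were tested genes next to each other in RefSeq order. A list of chemoreceptors was left out of the text because its name pattern also took in other families. A ratio against 1 to 3 counts has an exact 95% interval, which covers counting error only. An exact permutation test of 3 against 3 libraries cannot go below 0.10.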

Additional observations from a re-analysis of the deposited data

Results flagged for a closer look

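The change under sucrose was compared with the change under sucrose on top of stearic acid for every named gene, and the interaction of both treatments was the test of the difference. Of the 199 named DEGs, 57.3% differed at an adjusted p of 0.05 or less. Given here are those among the 24 genes with the largest changes and those that differed by at least 3 on the log2 scale, each as the log2 fold change on stearic acid minus that with sucrose alone. Since the genes were chosen by the change with sucrose alone, a difference towards a smaller change is favoured by the choice. The test for a single far value within a group needs at least 4 samples and was not run on groups of 3. How control 3 stood apart is given with the results.

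Among genes that rose with sucrose alone, the difference was negative in fat and propionate genes, at -4.58 for acdh-1, -3.80 for acs-2 and -4.10 for hacd-1. The glycerol channel gene aqp-1 differed by -3.83, the monooxygenase gene fmo-2 by -2.62 and the lysozyme gene lys-4 by -1.54. Receptor genes nhr-57 and nhr-271 differed by -3.63 and -3.03, and math-10 by -5.31. Among glycan-modifying genes the values were -1.89 for C33H5.1, -2.22 for F49C12.1, -2.38 for F49C12.4 and -2.38 for gtnt-13. The phosphatase-domain gene C45E5.1 differed by -2.43, and Caenorhabditis_elegans_newGene_738, a gene assembled by the authors, by -7.36.

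Among genes that fell with sucrose alone, some fell further on stearic acid, with differences of -5.22 for the protease gene asp-16, -4.76 for the P450 gene cyp-13A4 and -1.36 for cld-1. The FkbM gene ZK1025.3 fell less, with a difference of 3.98. The pud genes went up in place of down, with differences of 5.30 for pud-3 and 5.64 for pud-4.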

How the results depend on the processing

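The counts of DEGs depended most on the fold minimum: without it sucrose against control gave 2346 DEGs (1227 higher, 1119 lower), sucrose on stearic acid 4334 (2036 higher, 2298 lower) and both in the same direction 1268. At an adjusted p of 0.01 the interaction was called for 782 genes. Leaving out single libraries gave 973 to 1190 DEGs (388 to 512 higher, 490 to 759 lower) for sucrose against control. For sucrose on stearic acid it gave 1223 to 1302 (432 to 520 higher, 745 to 848 lower), for both in the same direction 466 to 583, and for the interaction 1296 to 2278, with the lowest counts without sucrose 2, stearic acid 3 or sucrose-stearic acid 1. Where an arm of the fit fell to 2 libraries, the spread was pooled over both groups. The replicate numbers were not used to pair the libraries in the main fits. Same-numbered control and sucrose libraries deviated from their group means with correlations of -0.37, 0.099 and -0.31 for numbers 1, 2 and 3. With 3 libraries a side, these values cannot show whether same-numbered libraries shared a batch. With the replicate block 1009 DEGs were called (431 higher, 578 lower), 1236 on stearic acid and 512 in both, and 1721 genes had an interaction. The other scalings, filters, tools and fits kept these counts within 1.5 times. Of the 199 named DEGs 160 were called under every alternative that tested them, and none changed direction. A search for promoter motifs was not run because no sequence was at hand. With 3 libraries a side, changes of weakly expressed genes were the least precise.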
